A study of Mus musculus with 12 samples.

Results

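The genes described here are the lactate dehydrogenases Ldha, Ldhb and Ldhd, the monocarboxylate transporters Slc16a1, Slc16a3 and Slc16a7, and Bsg, which encodes the membrane protein basigin. They were chosen by gene symbol, and they are 7 of the 37681 genes in the deposited count table. RNA was sequenced from a thin outer slice of kidney cortex of 3 TRACK mice (TRACK/gamma-HIF1alphaM3 TG+) and 3 wild-type littermates (TG−), all untreated C57BL/6 males aged 18 months. TG+ mice carry a transgene for a mutated, constitutively active HIF1α that is expressed in the proximal tubules, and TG− mice lack it, so the comparison asks what this transgene does to cortical mRNA. Each mouse gave 1 library from each of its 2 kidneys, for 12 libraries in all, and the kidneys of a mouse were summed. Read totals lay between 21888584 and 33704850 per library and between 48052131 and 60506785 per mouse. The number of founder lines was not given in the sources used here, and p-values measure the spread between these 6 mice.

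Lactate dehydrogenase interconverts pyruvate and lactate and, with it, NADH and NAD+. Ldha encodes the subunit that predominates in glycolytic tissues and Ldhb the subunit that predominates in oxidative tissues, and the subunits join into mixed tetramers, while Ldhd encodes a mitochondrial enzyme that oxidizes D-lactate. Lactate crosses the plasma membrane together with a proton through monocarboxylate transporters, of which Slc16a1 encodes MCT1, Slc16a3 encodes MCT4, the form typical of lactate-exporting cells, and Slc16a7 encodes MCT2, a high-affinity form. Basigin escorts MCT1 and MCT4 to the membrane. Kidney cortex takes up lactate for gluconeogenesis, and LDHA and MCT4 are textbook products of HIF1α target genes.

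The cortex label was checked against marker genes. The 9 proximal tubule markers, which include Lrp2, Slc34a1 and Kap, were all detected and summed to between 25108 and 28076 normalized CPM (read counts scaled to library size, in counts per 1000000 reads) in TG+ mice and to between 33240.5 and 35398 CPM in TG− mice. Kap gave the largest part of both sums, and without it the other 8 summed to between 10281 and 10835 CPM in TG+ and between 16450.2 and 17922 CPM in TG− mice. Hif1a itself, whose reads do not tell transgene from mouse gene in a gene-level count, had 95.7 ± 11.8 CPM in TG+ and 104 ± 2.17 CPM in TG− (SD, n = 3 mice each), a log2 fold change of −0.12 (edgeR adjusted p = 0.343), and so does not check the genotype labels. Kap, an abundant proximal tubule transcript, differed by −0.08 on the log2 scale and Ggt1, a brush border enzyme, by −0.18, and neither passed the test (edgeR adjusted p = 0.528 and 0.0856).

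Promoter sequence was available for 5 of the 7 genes, in 6 windows of the 250 bases before a RefSeq transcript start (GRCm38.p6). HIF proteins bind the core letters ACGTG or GCGTG, which were searched on both strands. Of 32851 windows of this length across the genome, 16.6% hold ACGTG, 28.2% hold GCGTG and 38.6% hold either, and a CACGTG counts once on each strand. The windows of Ldha and Slc16a3, both called higher in TG+, and that of Ldhb, which was not called, are shown because the comparison of these 3 genes runs through the results. Each is written 5′ to 3′ on the strand of the gene, with the motif in capitals, as a match on either strand (CACGT and CACGC are the reverse complements) and with CACGTG shown whole.
Ldha, chr7:46845554-46845803, plus strand: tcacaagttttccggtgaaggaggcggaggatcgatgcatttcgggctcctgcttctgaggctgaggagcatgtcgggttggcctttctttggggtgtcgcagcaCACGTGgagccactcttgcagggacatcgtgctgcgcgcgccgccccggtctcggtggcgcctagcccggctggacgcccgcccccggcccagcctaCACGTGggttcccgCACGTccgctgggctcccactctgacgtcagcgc
Ldha, chr7:46846832-46847081, plus strand: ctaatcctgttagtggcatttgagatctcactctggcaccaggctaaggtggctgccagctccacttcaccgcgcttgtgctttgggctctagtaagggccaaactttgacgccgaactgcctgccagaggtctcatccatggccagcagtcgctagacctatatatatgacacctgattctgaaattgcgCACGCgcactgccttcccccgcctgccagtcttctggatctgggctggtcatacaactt
Slc16a3, chr11:120948817-120949066, plus strand: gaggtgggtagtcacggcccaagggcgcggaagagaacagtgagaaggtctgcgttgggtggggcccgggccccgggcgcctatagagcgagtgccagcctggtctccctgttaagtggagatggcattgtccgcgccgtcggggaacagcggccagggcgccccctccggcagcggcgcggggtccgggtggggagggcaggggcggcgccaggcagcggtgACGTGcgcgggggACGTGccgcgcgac
Ldhb, chr6:142507958-142508207, minus strand: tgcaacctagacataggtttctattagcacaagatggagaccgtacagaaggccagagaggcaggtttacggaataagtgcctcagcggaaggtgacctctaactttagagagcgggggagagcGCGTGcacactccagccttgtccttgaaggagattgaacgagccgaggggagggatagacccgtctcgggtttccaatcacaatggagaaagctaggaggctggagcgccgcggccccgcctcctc
The first Ldha window holds 5 matches to ACGTG, from 2 CACGTG and 1 CACGT, and the other holds 1 match to GCGTG. Both lie within the annotated span of Ldha (GENCODE M21, GRCm38, chr7:46841475-46855627, plus strand). The Slc16a3 window holds 2 matches to ACGTG, 27 and 14 bases before the start, within the span of the gene (chr11:120948480-120960868, plus strand). The Ldhb window holds 1 match to GCGTG and lies just before the gene (chr6:142490249-142507957, minus strand). Of the windows not shown, that of Slc16a1 (gene at chr3:104638668-104658462, plus strand) holds 2 matches to each motif and that of Ldhd (gene at chr8:111623785-111630374, minus strand) holds 2 matches to ACGTG, both from 1 CACGTG. Slc16a7 (chr10:125219270-125389465, minus strand) and Bsg (chr10:79704491-79711969, plus strand) had no window. A match is only a run of letters, and binding was not measured. The submitters' processing notes name the older build mm9, and the deposited table holds no coordinates, so every position given here is that of the GRCm38 annotation.

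Of the 7 genes, Ldha, Slc16a3 and Bsg rose in TG+ cortex and none fell by the main threshold. That threshold was a change of over 2-fold, up or down to below 0.5, together with a Benjamini-Hochberg adjusted p under 0.01 from edgeR's quasi-likelihood test. Over all 19399 genes tested, 3.77% were called higher and 0.211% lower. With an adjusted p below 0.05 and any fold change, the same 3 genes were called higher and Ldhd lower, beside 15.4% of all genes higher and 10.9% lower. The levels of TG+ and TG− mice did not overlap for 5 of the 7 genes, which left out Slc16a1 and Slc16a7, and this held for 44.2% of all genes tested.

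**Figure D1:**
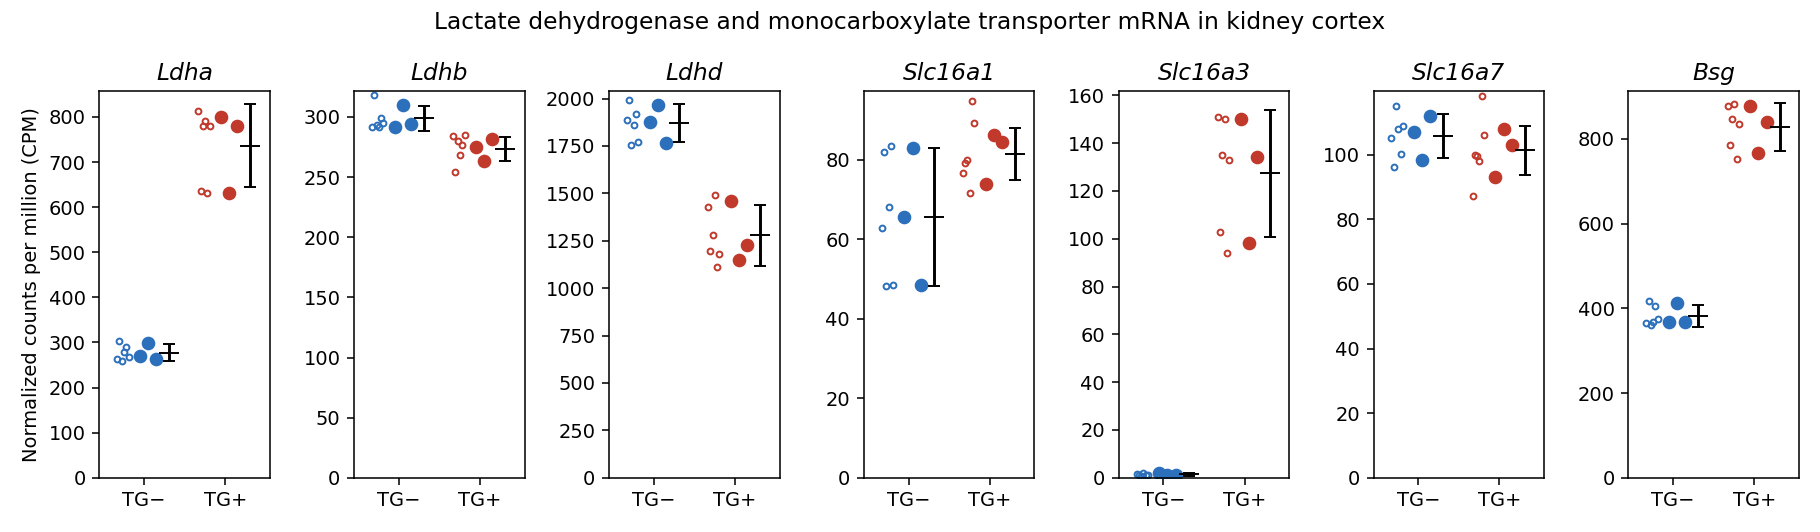
Normalized CPM (y axis, linear, from 0) of the 7 genes in TG− and TG+ cortex; open points are single kidneys, filled points are mice with both kidneys summed, and the black bar is the mean ± SD of 3 mice. Ldha, Slc16a3 and Bsg lay higher in every TG+ mouse, Ldhd and Ldhb lay lower, and Slc16a1 and Slc16a7 overlapped.

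Ldha (ENSMUSG00000063229) had 799, 631 and 779 CPM in TG+ mice 43-29, 43-49 and 43-75 and 271, 299 and 263 CPM in TG− mice 43-26, 43-50 and 43-76. The lowest TG+ mouse, 43-49, was still above the highest TG− mouse, and the TG+ mice were the more spread (736 ± 91.8 against 278 ± 19 CPM, SD, n = 3 each). The log2 fold change was 1.41 with a standard error of 0.10 (95% interval 1.18 to 1.64), a 2.65-fold rise (edgeR adjusted p = 9.99e-05). Right and left kidneys were not named in the labels, but kidney 1 and kidney 2 of a mouse gave nearly the same Ldha level, with log2 differences between −0.06 and 0.09.

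Ldhb (ENSMUSG00000030246) had 275, 263 and 282 CPM in the TG+ mice and 292, 310.3 and 294 CPM in the TG− mice. Every TG+ mouse was below every TG− mouse, by a narrow gap. The log2 fold change was −0.13 with a standard error of 0.05 (95% interval −0.25 to −0.00), which did not pass the adjusted test (edgeR adjusted p = 0.118). In the alternative with each kidney as its own library the edgeR adjusted p was 0.0161, but that fit counts the 2 kidneys of a mouse as separate replicates, and with the mouse as a random effect on the same libraries limma gave 0.0677.

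Ldhd (ENSMUSG00000031958) had the most reads of the 7 genes in every mouse, with 1459, 1151 and 1228 CPM in TG+ mice and 1878, 1967 and 1765 CPM in TG− mice. The groups did not overlap, and TG+ mouse 43-29 was the nearest to the TG− mice. The mean level fell from 1869.9 ± 101 to 1279 ± 161 CPM, a log2 fold change of −0.55 with a standard error of 0.09 (95% interval −0.76 to −0.33, edgeR adjusted p = 0.00511), which is 0.684 of the TG− level and short of the 2-fold threshold. The proximal tubule markers moved in the same direction. All 9 had log2 fold changes below 0, with a median of −0.64. Of these markers 6 fell at an adjusted p below 0.05, beside 10.9% of all genes tested. Slc22a6, an organic anion transporter, fell past the main threshold. In bulk cortex fewer cells of a type and less RNA per cell cannot be told apart, and the part of the markers in the Ldhd value was not tested.

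The ratios of Ldha to the other dehydrogenases were higher in every TG+ mouse than in any TG− mouse. The log2 ratio of Ldha to Ldhb reads was 1.54, 1.26 and 1.47 in TG+ mice and −0.11, −0.05 and −0.16 in TG− mice, a difference of 1.53. The log2 ratio of Ldha to Ldhd was −0.80 ± 0.12 in TG+ and −2.75 ± 0.04 in TG− mice (SD, n = 3), a difference of 1.95. The smallest two-sided p over the 20 assignments of 3 against 3 mice is 0.1, and both pairs gave it (exact permutation p = 0.1, and 0.1 after adjustment over the 6 pairs compared). Such ratios within a library do not depend on the scaling of the libraries. Every TG+ mouse was higher for Ldha and lower for Ldhb and Ldhd, so the non-overlap of these ratios was already fixed by those levels.

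The share of Ldha in the summed mRNA of Ldha and Ldhb was higher in every TG+ mouse. With the gene lengths behind the deposited RPKM values, Ldha made up 51.3%, 46.5% and 50.1% of the normalized CPM per kilobase of Ldha plus Ldhb in TG+ mice and 25.2%, 25.9% and 24.5% in TG− mice. The share was 24.1 percentage points higher in TG+, with no overlap (exact permutation p = 0.1, the smallest possible). With the merged exon lengths of GENCODE M21 the means were 56% ± 2.46 and 30.6% ± 0.812 (SD, n = 3), a difference of 25.4 points. Of reads without any length it was 72.8% ± 1.99 and 48.1% ± 0.955, a difference of 24.7 points, so the level of the share, and whether Ldha or Ldhb was the larger in TG+, depended on the lengths.

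Some reads of the dehydrogenases cannot be placed with certainty. Of the 51-base stretches of annotated Ldha transcripts, as long as the reads, 8.83% also occur in other genes, among them Ldha-ps2 and Gm11814. The rows of Ldha-ps, Ldha-ps2 and Gm11814, which were singled out after their values were seen, rose by log2 fold changes of 1.39, 1.42 and 1.45, and at 12.5, 51.5 and 53.4 CPM in TG+ they were far below Ldha. Ldhb shares 20.4% of its stretches with Gm5514, which had a log2 fold change of −0.10 (edgeR adjusted p = 0.257). Ldhd shares 40.2% with Znrf1, a ubiquitin ligase gene on the opposite strand, whose level fell by 0.47 on the log2 scale (edgeR adjusted p = 0.00936). Whether the counting used strand was not given in the sources used here, so reads of Ldhd and Znrf1 in their overlap cannot be told apart. Slc16a1, Slc16a3 and Bsg share no such stretch with another gene, and Slc16a7 shares 1.31%.

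Slc16a3 (ENSMUSG00000025161), the MCT4 gene, changed most of the 7. It had 150.0, 98.1 and 134 CPM in TG+ mice 43-29, 43-49 and 43-75, from 7419, 5562 and 6718 reads. In TG− mice 43-26, 43-50 and 43-76 it had 1.93, 1.21 and 1.02 CPM, from 99, 69 and 50 reads, so it was low in TG− cortex but not at 0. The log2 fold change was 6.52 with a standard error of 0.25 (95% interval 5.93 to 7.10), a 91.6-fold rise (edgeR adjusted p = 5.46e-06). At these low TG− levels kidney 2 exceeded kidney 1 by 0.28 to 0.62 on the log2 scale in the 3 TG− mice, while the TG+ kidneys differed by between −0.13 and −0.01.

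Slc16a1 (ENSMUSG00000032902), the MCT1 gene, had 73.9, 86.2 and 84.4 CPM in TG+ mice and 65.6, 83 and 48.4 CPM in TG− mice. The groups overlapped, since TG− mouse 43-50 lay above TG+ mouse 43-29. The log2 fold change was 0.31 with a standard error of 0.17 (95% interval −0.09 to 0.71, edgeR adjusted p = 0.224). Single mice moved the value, to 0.51 without TG− mouse 43-50 (edgeR adjusted p = 0.0429) and to 0.13 without TG− mouse 43-76 (edgeR adjusted p = 0.49).

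Slc16a7 (ENSMUSG00000020102), the MCT2 gene, had 93, 108 and 103 CPM in TG+ mice and 107, 98.4 and 112 CPM in TG− mice. The groups overlapped in part, with the lowest value in TG+ mouse 43-29 and the highest in TG− mouse 43-76. The log2 fold change was −0.06 with a standard error of 0.08 (95% interval −0.24 to 0.11, edgeR adjusted p = 0.577).

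Bsg (ENSMUSG00000023175), the chaperone gene, had 879, 766 and 839.9 CPM in TG+ mice and 367, 413 and 368 CPM in TG− mice. Every TG+ mouse was well above every TG− mouse, with 43-49 the lowest of the TG+ mice as for Ldha and Slc16a3. The log2 fold change was 1.11 with a standard error of 0.08 (95% interval 0.94 to 1.29), a 2.16-fold rise (edgeR adjusted p = 7.81e-05). The kidneys of a mouse differed by between −0.06 and 0.05 on the log2 scale, the narrowest range of the 7 genes. Without single mice, or with other scalings, tests or kidneys, the called genes stayed between 1.34 and 1.53 for Ldha, 6.31 and 6.82 for Slc16a3 and 1.06 and 1.23 for Bsg on the log2 scale. All 3 were called in each of the 15 alternative fits.

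**Figure D2:**
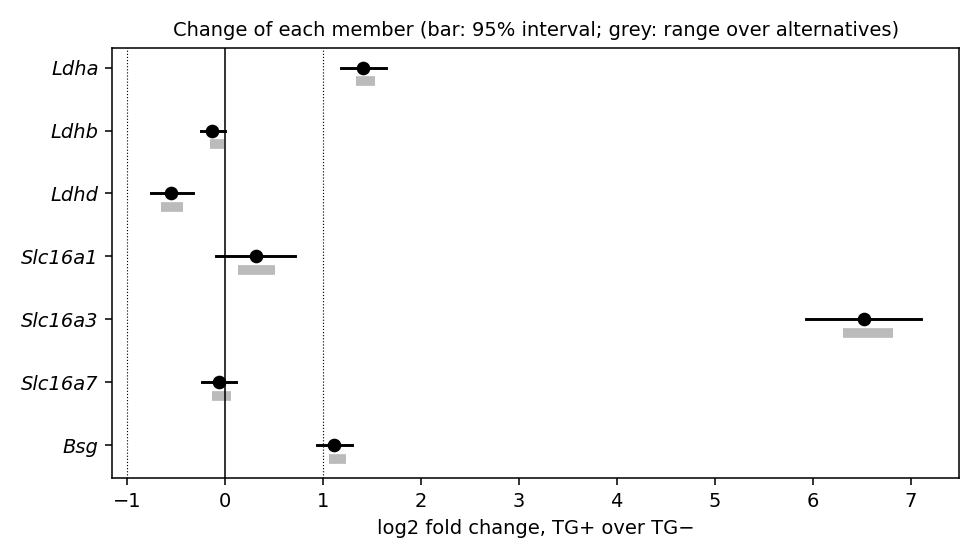
Log2 fold change of TG+ over TG− (x axis) for each of the 7 genes. Points and black bars are the estimate and its 95% interval, grey bars span the 15 alternative fits, and dotted lines mark a 2-fold change. Slc16a3 at 6.52 stands far to the right, Ldha and Bsg lie past 1, and the intervals of Ldhd and, barely, of Ldhb lie below 0.

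Ratios among the transporters and Bsg were compared in the same way. The log2 ratio of Slc16a3 to Slc16a1 reads was 1.02, 0.19 and 0.66 in TG+ mice and −5.09, −6.10 and −5.56 in TG− mice, a difference of 6.21. The ratio of Slc16a3 to Slc16a7 differed by 6.62 and that of Slc16a3 to Bsg by 5.44. The ratio of Slc16a1 to Bsg went the other way, from −2.58 ± 0.31 in TG− to −3.35 ± 0.21 in TG+ mice (SD, n = 3), a difference of −0.77. No pair overlapped between the groups, and each had an exact permutation p of 0.1, the smallest possible, and 0.1 after adjustment over the 6 pairs. Each of these pairs held Slc16a3 or Bsg, whose own levels did not overlap, as for 44.2% of all genes tested. The ratios therefore give the size of a difference, and their p-values are no separate evidence of a change.

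Slc16a3 went from a trace to a sizeable share of the mRNA of the 3 transporters. With the lengths behind the deposited RPKM, it made up 27.4%, 17.5% and 23% of the normalized CPM per kilobase of Slc16a1, Slc16a3 and Slc16a7 in TG+ mice and 0.477%, 0.278% and 0.279% in TG− mice. The difference of the means was 22.3 percentage points (exact permutation p = 0.1, the smallest possible). The share of Slc16a7 was 54.5% ± 8.2 in TG− and 36.9% ± 2.41 in TG+ mice (SD, n = 3), without overlap (exact permutation p = 0.1). The sum behind it also holds Slc16a3, and the level of Slc16a7 itself had a log2 fold change of −0.06 (edgeR adjusted p = 0.577). The share of Slc16a1 was 45.2% ± 8.2 in TG− and 40.4% ± 2.62 in TG+, with overlap (exact permutation p = 0.5). With GENCODE exon lengths the share of Slc16a3 was 46.7% ± 7.17 in TG+ and 1.09% ± 0.359 in TG−, and of reads without any length it was 40.9% and 0.801%. The size of this share depends on the lengths, since its means were 22.6% and 0.344% with those behind the deposited RPKM. The result for Slc16a1 also depends on them, since its share was 36.4% ± 4.88 in TG+ and 61% ± 7.82 in TG− with GENCODE lengths and 26.4% and 37.7% of reads without length, in both cases without overlap (exact permutation p = 0.1).

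**Figure D3:**
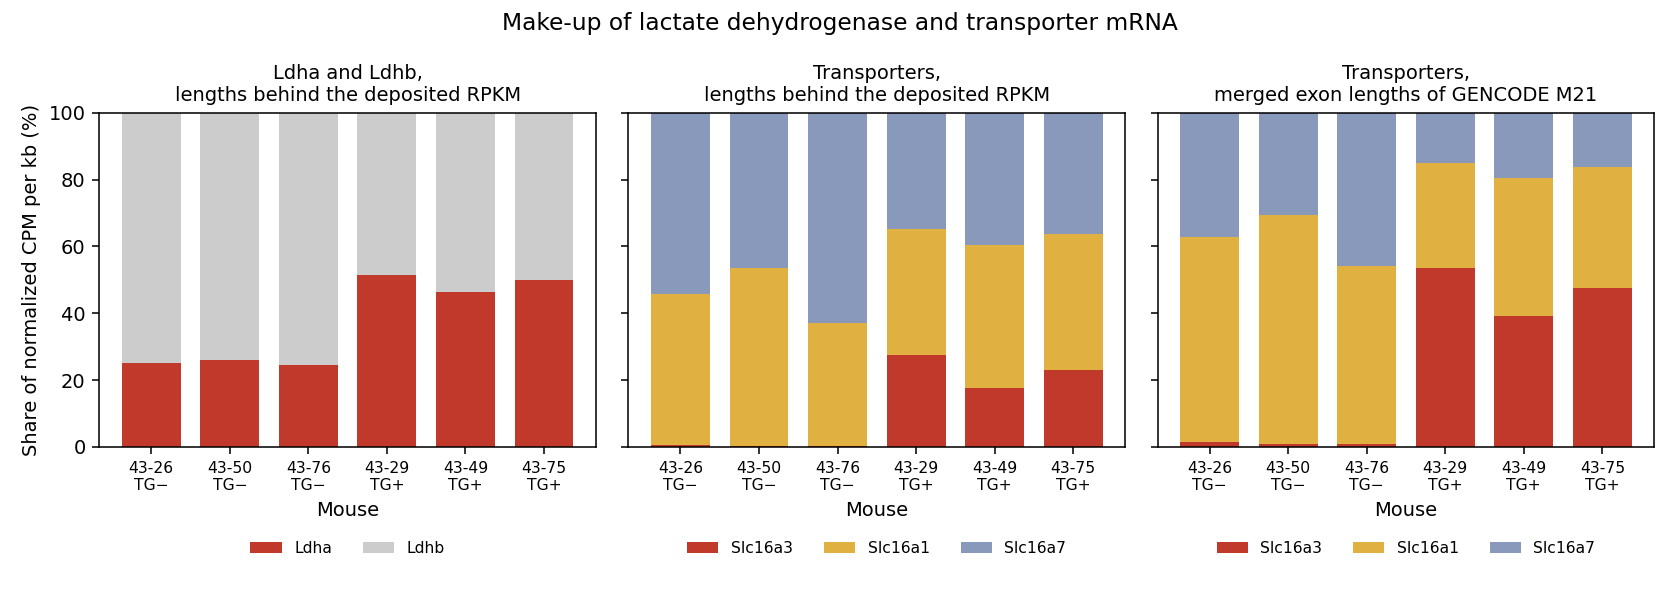
Share of normalized CPM per kilobase (y axis, percent, from 0 to 100) of Ldha and Ldhb, and of Slc16a3, Slc16a1 and Slc16a7 under each set of gene lengths, in each of the 6 mice. Ldha is near 25.2% in TG− and 49.3% in TG+ mice; Slc16a3 is hardly visible in TG− mice and takes 22.6% or 46.7% on average in TG+ mice, depending on the lengths.

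The order of the genes by level per length differed between the genotypes. In TG− cortex the normalized CPM per kilobase with the deposited lengths was 166 for Ldhd, 121 for Bsg, 105 for Ldhb, 35.3 for Ldha, 17.6 for Slc16a7, 14.8 for Slc16a1 and 0.112 for Slc16a3, and of these neighbours only Slc16a7 and Slc16a1 overlapped between mice. In TG+ cortex it was 262 for Bsg, 113 for Ldhd, 95.7 for Ldhb, 93.5 for Ldha, 18.4 for Slc16a1, 16.8 for Slc16a7 and 10.3 for Slc16a3. Ldhb and Ldha overlapped there, as did Slc16a1 and Slc16a7. This order depends on the lengths. With GENCODE lengths Bsg was first in TG+ and Ldhd first in TG− as before, while the mean of Slc16a3 in TG+ was 23.9 CPM per kilobase against 18.4 for Slc16a1 and 8.55 for Slc16a7. Slc16a3 and Slc16a1 overlapped there, since in TG+ mouse 43-49 Slc16a3 had 18.4 and Slc16a1 19.5 CPM per kilobase. With those lengths Ldha lay above Ldhb in TG+ without overlap (222 against 174 CPM per kilobase), and Slc16a1 lay above Slc16a7 in TG− (14.8 against 8.94).

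Around these 7 genes, 37 other genes of lactate and pyruvate handling were listed and 35 could be tested. By the main threshold 4 rose and 1 fell, beside 3.77% and 0.211% of all genes tested. At an adjusted p below 0.05 with any fold change 7 rose and 9 fell, beside 15.4% and 10.9% of all genes tested. The median log2 fold change of the list was −0.08, beside 0.01 over all genes tested. Ldhc, the testis form of lactate dehydrogenase, had 0 reads in every mouse, and Ldhal6b was not analysed here.

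Other Slc16 genes moved in both directions. Slc16a6, which encodes MCT7, had 62.4, 51.4 and 61.1 CPM in TG+ mice and 21.4, 22.3 and 21.4 CPM in TG− mice. Its log2 fold change was 1.42, close in size to that of Ldha, with a standard error of 0.08 (edgeR adjusted p = 3.21e-05). The creatine transporter Slc16a12 fell from 272 ± 19.5 to 199.8 ± 11.2 CPM (log2 fold change −0.45, edgeR adjusted p = 0.0038). Slc16a13 fell by 0.52 on the log2 scale, at an edgeR adjusted p of 0.048 that did not last when mice were left out. Without TG− mouse 43-50, which had 128 CPM against 83.1 and 87 CPM in the other TG− mice, its log2 fold change was −0.29 (edgeR adjusted p = 0.0535). Without TG− mouse 43-76 or TG+ mouse 43-49 it was −0.60 (edgeR adjusted p = 0.0603 and 0.057), and without TG+ mouse 43-29 or 43-75 it was −0.49 (edgeR adjusted p = 0.106 and 0.12). None of the following passed the test, with log2 fold changes of 0.09 for Slc16a4, 0.21 for Slc16a5, 0.62 for Slc16a8 with only 8 to 29 reads per mouse, −0.32 for Slc16a9, −0.10 for Slc16a10, 0.07 for Slc16a11 and −0.03 for Slc16a14.

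The other carriers did not pass the test in either direction. Emb encodes embigin, the chaperone partner of MCT2, and had 28.8 ± 0.893 CPM in TG+ and 25.4 ± 1.34 CPM in TG− mice, without overlap (log2 fold change 0.18, edgeR adjusted p = 0.0686). The sodium-coupled lactate carriers of the tubule, Slc5a8 and Slc5a12, had log2 fold changes of −0.03 and −0.12. The mitochondrial pyruvate carrier genes Mpc1 and Mpc2 had −0.17 and −0.13. Hcar1, the lactate receptor gene, had 3.07 ± 1.35 CPM in TG+ and 2.39 ± 0.391 CPM in TG− mice (log2 fold change 0.37, edgeR adjusted p = 0.43). Of the glyoxalase genes that form D-lactate, the substrate of Ldhd, Glo1 had a log2 fold change of 0.00 and Hagh of −0.18 (edgeR adjusted p = 0.971 and 0.102).

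**Figure D4:**
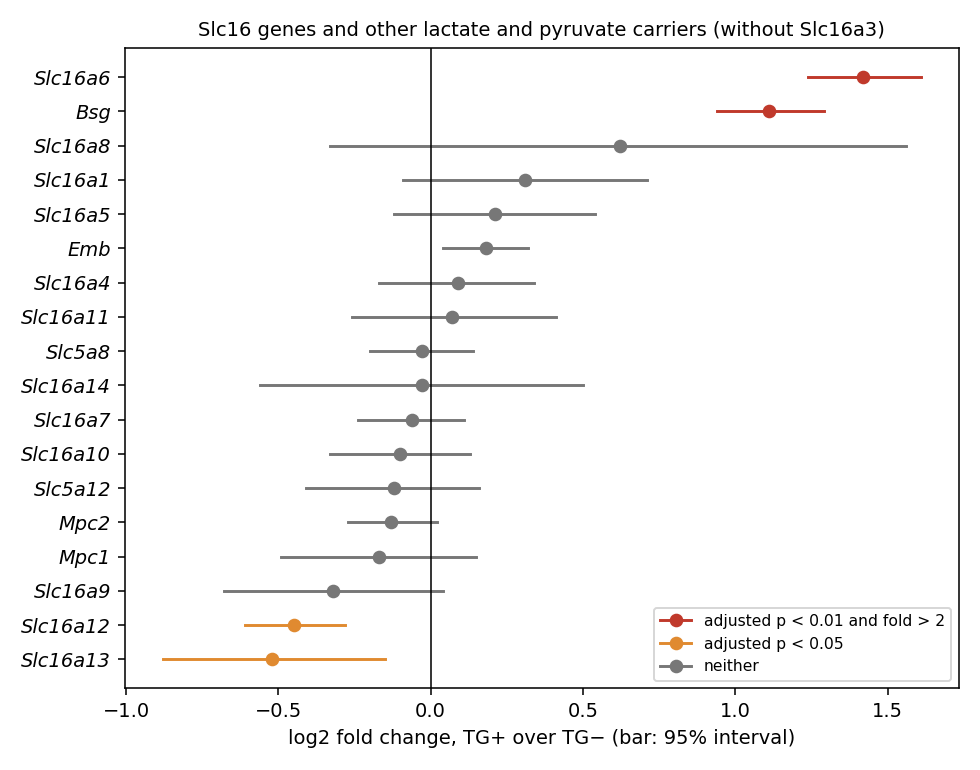
Log2 fold change of TG+ over TG− (x axis) with its 95% interval for the Slc16 genes described, Bsg, Emb and the other carriers, without Slc16a3, which is off this scale at 6.52; colours mark the call. Slc16a6 and Bsg lie past 1, Slc16a12 and Slc16a13 have intervals below 0, and the wide bar of Slc16a8 comes from 8 to 29 reads per mouse.

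Genes on the pyruvate side moved in both directions. The pyruvate kinase genes, which supply pyruvate, both rose: Pkm from 76.9 ± 1.95 to 456 ± 50.4 CPM (log2 fold change 2.57, edgeR adjusted p = 3.5e-06) and Pklr from 42.5 ± 3.62 to 174 ± 25.9 CPM (log2 fold change 2.03, edgeR adjusted p = 3.33e-05). Pdk1, whose kinase restrains pyruvate dehydrogenase, rose from 39.5 ± 2.05 to 304 ± 28.5 CPM (log2 fold change 2.94, edgeR adjusted p = 2.45e-06). The alanine transaminase gene Gpt fell from 40.1 ± 2.18 to 17.6 ± 3.14 CPM (log2 fold change −1.19, edgeR adjusted p = 0.000485). Of all 14 genes of pyruvate fates, Pdk1 and Gpt were those past the main threshold. At an adjusted p below 0.05 with any fold change 4 rose and 6 fell, beside 15.4% and 10.9% of all genes tested. Other genes of that wider threshold were singled out after their values were seen. Of the further kinase genes, Pdk3 was higher (log2 fold change 0.52, edgeR adjusted p = 0.00128) and Pdk2 was lower (−0.35, edgeR adjusted p = 0.00341) in TG+, and the phosphatase gene Pdp2 was lower as well (−0.64, edgeR adjusted p = 0.00193). These 3 calls held in all 15 alternative fits. Dld, Pdhx, Pdp1 and Gpt2 supply parts or a phosphatase of pyruvate dehydrogenase and the other alanine transaminase. Their log2 fold changes were −0.21, −0.22, 0.44 and 0.58. These calls were lost without at least 1 of the mice, at edgeR adjusted p between 0.0505 and 0.0641. In those fits the log2 fold change was −0.22 to −0.19 for Dld, −0.24 to −0.21 for Pdhx, 0.37 and 0.44 for Pdp1 and 0.55 for Gpt2. Gpt2 stayed called in 14 of the 15 alternative fits. Other settings took the highest adjusted p to 0.182 for Dld and 0.183 for Pdhx with library size alone and to 0.101 for Pdp1 with kidney 1 alone. Dlat, a further subunit gene of pyruvate dehydrogenase, was lower (log2 fold change −0.27, edgeR adjusted p = 0.0115), and its call was lost only with library size alone (−0.15, adjusted p = 0.117) among the 15 alternative fits.

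For each of the 7 genes, the genes whose log2 CPM followed it most closely over the 6 mice were listed among 15703 genes, as a description in which the genotype itself sets much of the correlation. Ldha was followed by Pgk1-rs7, Susd5 and Slc5a10 (Pearson r = 0.999, 0.999 and 0.9987). Bsg was followed by Gm12033, ENSMUSG00000078191 and Bnip3 (r = 0.9999, 0.9996 and 0.9995), and Slc16a3 by Gm9844, Gm10275 and Arhgef4 (r = 0.9998, 0.9996 and 0.9994). Ldhd was followed by Nudt11, Znrf1 and Psmd3 (r = 0.9984, 0.9974 and 0.9969), of which Znrf1 overlaps it. Ldhb was followed by Zdhhc6 and Dhrs4 (r = 0.9984 and 0.9978) and Slc16a7 by Tcte2, ENSMUSG00000046526 and Rassf2 (r = 0.9945, 0.9853 and 0.985). Slc16a1 had the loosest neighbours, Rpusd1, Timm50 and Sfrp5 (r = 0.978, 0.972 and 0.9673).

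Markers of other cell types moved with the genotype as well. The 8 immune markers summed to between 763 and 1229 CPM in TG+ mice and between 206 and 258 CPM in TG− mice. By the main threshold 5 of 8 were called higher, beside 3.77% of all genes tested. Most of the immune sum was Igkc, an immunoglobulin light chain gene. The other 7 markers summed to between 46.7 and 50.2 CPM in TG+ and between 20.7 and 30.4 CPM in TG− mice. Of the macrophage markers, Cd68 rose at an adjusted p below 0.05 (log2 fold change 0.89, edgeR adjusted p = 0.00406) and Adgre1 did not pass the test (log2 fold change 0.35, edgeR adjusted p = 0.286). The 5 endothelial markers summed to between 461 and 487 CPM against 269 to 356 CPM, and the 5 stromal markers to between 202 and 254 CPM against 119 to 142 CPM. Podocyte markers summed to between 435 and 521 CPM against 335 to 397 CPM, red blood cell genes to between 71.9 and 91.7 CPM against 42.9 to 52.3 CPM, and proliferation genes to between 9.74 and 20.1 CPM against 5.03 to 8.11 CPM. Markers of other nephron segments, at between 3479.7 and 4784 CPM against 3814 to 3923 CPM, and of skeletal muscle, at between 4.21 and 4.43 CPM against 2.95 to 6.71 CPM, overlapped. The part of these cells in the Ldha, Slc16a3 and Bsg levels was not tested.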

How the data were processed

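Per the labels, RNA was prepared with the illumina TruSeq RNA kit and read as 51-base single ends. The authors deposited a read count for each of 37681 Ensembl genes in each of 12 libraries, without normalization. The RPKM values they deposited are proportional to the count plus 1, and were used only to recover gene lengths. Those lengths exceeded merged exons by over 1% for 42.2% of 32661 matched genes and were within 1% for 38.9%. Among the 7 genes they were longer for Slc16a3 (12.367 against 5.318 kb) and Ldha (7.878 against 3.31 kb). For Ldhb they were also longer (2.856 against 1.57 kb), for Slc16a1 the same (4.426 kb) and for Slc16a7 shorter (6.018 against 11.839 kb). The deposited log2 RPKM columns and the columns of the authors' own comparison (fold changes, p-values and q-values) were not used. The submitters' processing notes name mm9, and the annotation release and strand setting were not given in the sources used here. Symbols came from GENCODE M21 for 86.627% of genes.

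Kidneys were summed per mouse, and the 3 TG+ and 3 TG− mice were compared with edgeR 4.0.16 (limma 3.58.1, R 4.3.3) by TMM factors (0.944 to 1.065), filterByExpr and the quasi-likelihood test, with Benjamini-Hochberg adjustment over 19399 genes. The script was tested on simulated data. DESeq2 1.42.0, limma voom, other scalings and filters, single kidneys, mouse pairs and each mouse left out were the alternatives. Differences between paired kidneys exceeded counting noise (chi-square per gene 1.951 to 7.297). Ratios and shares were tested by exact permutation over mice. All 7 genes were named, along with the listed carriers, paralogs and D-lactate genes, the pyruvate genes past the threshold, the label checks and the 3 closest genes to each of the 7 at a mean of at least 1 CPM, of which some are not reported here. The genes and lists were chosen with earlier results of these data known.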

Additional observations from a re-analysis of the deposited data

Results flagged for a closer look

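Ldhb in TG− cortex had 1 library apart from the others. Kidney 1 of TG− mouse 43-50 gave 318 normalized CPM, while the other 5 TG− libraries lay between 292 and 299 CPM. The gap took up 0.731 of the range of the group, above Dixon's critical value for a group of 6. Such a gap was looked for in 14 groups of 6 libraries (7 genes in TG+ and TG−), where chance flags about 1 in 20, and the libraries come in pairs from 1 mouse. Without that mouse the Ldhb log2 fold change was −0.10 (edgeR adjusted p = 0.272).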

How the results depend on the processing

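Ldha, Slc16a3 and Bsg kept their direction and call, and Ldhb, Slc16a1 and Ldhd stayed uncalled by the main threshold, under all other scalings, tests, filters, kidneys and left-out mice. Ldhd, at −0.55, is called once any fold counts at an adjusted p below 0.05, and the calls in the list of other genes then rise from 5 to 16. Slc16a7, not called in any setting, changed sign to 0.06 with library size alone and to 0.02 with kidney 2 alone. The difference in the Slc16a3 share was 40.1 percentage points without length and 45.7 with annotated lengths, against 22.3. Library size alone moved the median of all genes from 0.01 to 0.13, and relative to it the 7 genes stayed within 0.01 of their values. It also moved the calls at an adjusted p below 0.05 from 2982 higher and 2105 lower to 4511 higher and 947 lower, and in the list from 7 and 9 to 8 and 5. The counts of all genes called by the main threshold, 732 higher and 41 lower, were 927 and 22 with library size alone and 469 and 30 without TG− mouse 43-76. The pair numbers were taken from the order in which the deposited table's name lists the mice. Deviations of same-numbered mice from their group means had r = 0.404, 0.371 and −0.005 over 5590 genes. Such deviations cancel within a group and other pairings of mice were not compared, so these values do not show that the pairs share anything. With a replicate block for these pairs the log2 fold change of Ldha was 1.40 and that of Slc16a1 0.34, no call of the 7 genes or the list changed, and 779 genes were called higher and 46 lower. Depth limits Slc16a3 in TG− mice (50 to 99 reads) and Slc16a8.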
